A study of Mus musculus with 34 samples.

Results

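The comparison described here asked what loss of Hdac1 did to the transcripts of astrocyte nuclei in the aged mouse cortex. It rests on 7 libraries of the 34 samples in the series: nuclei labelled GFAP+_WT1, 3 and 4 from Hdac1f/f mice, called controls, and nuclei labelled GFAP+_KO1 to 4 from Hdac1f/f, Nestin-Cre mice, called Hdac1 cKO. All of these mice were 13 months old, and each library came from 1 animal. The library labelled GFAP+_WT2 was not analysed here, so 3 controls were set against 4 cKO mice. Members were chosen by these labels alone, and all 23951 genes of each file were read. Nuclei were released from frozen cortex, stained for the glial filament protein GFAP and the neuronal protein NeuN, and sorted for GFAP, and cDNA was made with a SMART-Seq kit for low RNA input. Nestin-Cre is active in neural progenitors and so recombines floxed alleles in both neurons and astrocytes, while microglia and vessel cells come from other lineages. The controls carried the floxed allele but no Cre, so the Cre transgene and the deletion cannot be told apart in this design.

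HDAC1 is a class I histone deacetylase. It removes acetyl groups from histones and other proteins within the SIN3, NuRD and CoREST corepressor complexes, in which its close paralog HDAC2 can take its place. Astrocytes clear glutamate and potassium, export lipid and cholesterol, and respond to cytokines and to injury. The cytokine-inducible SH2 proteins, to which Socs2 and Cish belong, are switched on by STAT5 downstream of growth hormone, prolactin and several cytokines, and then damp those receptors.

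Values were FPKM, fragment counts scaled to the length of the transcript and to the number of fragments mapped, which are comparable between genes of unlike length. Genes averaging 0.5 FPKM or more over the 7 libraries were tested, which left 15070. Every fold change was computed on log2(FPKM + 1), as cKO minus control, and so understates changes of weakly expressed genes. A gene was called differentially expressed (DEG) where it changed 1.5-fold or more with a limma p below 0.05 before adjustment, the thresholds of the study, and the p adjusted by Benjamini-Hochberg over all genes tested is given beside it. Because 3 against 4 samples cannot give an exact two-sided permutation p below 0.0571, single values are described by whether the groups overlap.

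Astrocyte markers were the most abundant of the cell type lists, and markers of other cell types were also present. The 24 astrocyte markers summed to between 6410 and 7080 FPKM in the controls and between 6364 and 7481 FPKM in the cKO libraries, and the glutamate transporters Slc1a2 (656 to 768 FPKM) and Slc1a3 (800.1 to 923 FPKM) were among the most abundant of them. The summed level of the 15 oligodendrocyte markers ranged from 720 to 1408 FPKM in controls and from 499 to 1289 FPKM in cKO libraries. It was lowest in cKO libraries 1 and 2, in which the 22 microglia and macrophage markers were also lowest, at 87.9 to 236 FPKM over the 4 cKO libraries against 120 to 253 FPKM in controls. The 19 neuron markers summed to between 383 and 548 FPKM in controls and between 372 and 444 FPKM in cKO libraries. Rbfox3, which encodes NeuN, was listed at 15.4 to 16.5 FPKM in controls and 15.6 to 16.9 FPKM in cKO libraries, beside 139 to 178 FPKM in libraries of whole hippocampus made by another method. Lists of endothelial markers (130 to 193 against 94.4 to 153 FPKM) and of mural cell and fibroblast markers (326 to 475 against 291 to 408 FPKM) overlapped between the groups. In bulk nuclei, fewer cells of a type and less RNA per cell cannot be told apart.

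**Figure D1:**
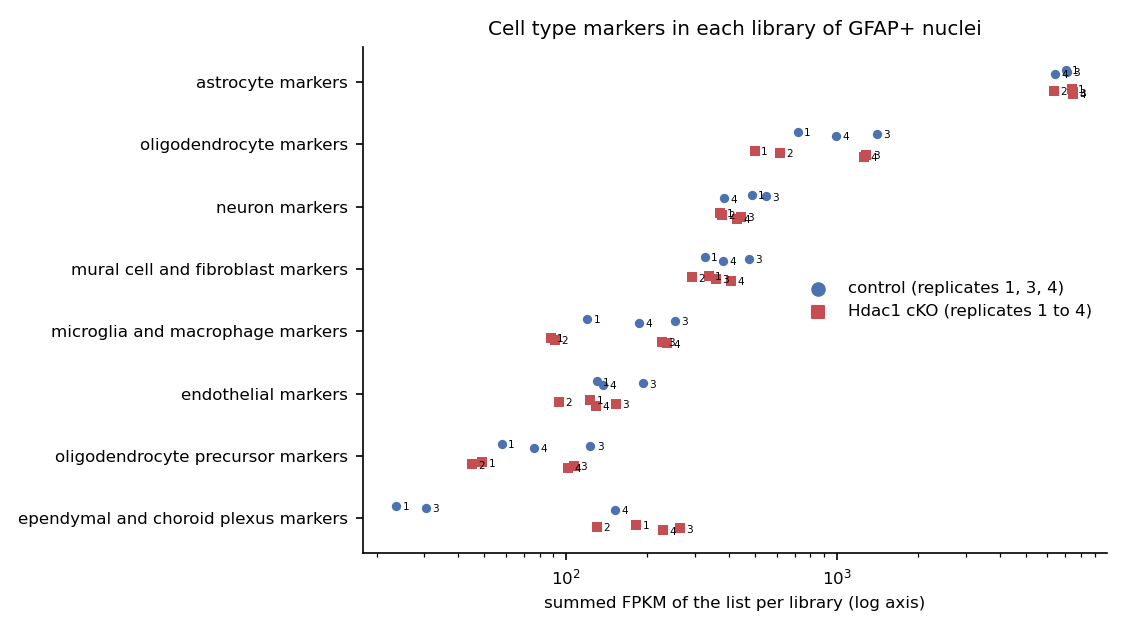
Summed FPKM (log axis) of each cell type marker list in each of the 7 libraries, controls as circles and Hdac1 cKO as squares, with the replicate number beside each point. Astrocyte markers lie between 6364 and 7481 FPKM in all libraries, while oligodendrocyte and microglia markers are lowest in cKO libraries 1 and 2. The ependymal and choroid plexus list is low only in controls 1 and 3, and most of its sum in the other libraries is Ttr.

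The libraries were of similar depth, at 0.871 to 1.27 times that of control 1, estimated from the steps between low FPKM values. Between 7229 and 7717 genes were listed at 0 per library. Entries of small RNAs held 34.3% to 39.0% of the summed FPKM, since FPKM divides by a short annotated length. Correlations across genes between libraries ranged from 0.855 to 0.890 within controls, from 0.873 to 0.884 within cKO and from 0.858 to 0.881 between the groups, so the 3 ranges overlapped. The abundant nuclear transcript Malat1 was listed at 0 in all 7 libraries and is not interpreted.

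Hdac1 itself was lower on average in cKO nuclei, but the groups overlapped. Hdac1 (chr4:129193348-129219957 in mm9, minus strand) was listed at 14.5, 9.91 and 22.3 FPKM in control libraries 1, 3 and 4 and at 9.71, 11.6, 5.80 and 8.73 FPKM in cKO libraries 1 to 4. Control 3 was thus below cKO 2 and close to cKO 1. The log2 fold change was -0.70 ± 0.28 (SE), with an adjusted p of 0.984 in limma, and an exact two-sided permutation p of 0.114. The files give 1 value per gene, so reads from the floxed exons could not be told apart from the rest. Without control 4, the library with the highest Hdac1, the change was -0.42 and missed the p threshold, as it did without control 1 (-0.71), cKO 3 (-0.53) or cKO 4 (-0.70), and it met both thresholds in 9 of 17 settings. Hdac2 (chr10:36694350-36721695) ranged from 14.6 to 18.3 FPKM in controls and from 9.997 to 19.6 FPKM in cKO libraries, with a log2 fold change of -0.19 ± 0.216. Of the 11 histone deacetylases tested, Hdac1 was the only DEG, beside 2.58% of all genes, and the median log2 fold change of the list was -0.07. None of the 25 corepressor subunits tested, among them the histone chaperones Rbbp4 and Rbbp7 and the scaffolds Sin3a and Sin3b, was a DEG (2.58% of all genes were), and their median was 0.05.

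Across the transcriptome few genes had an adjusted p below 0.05. Of the 15070 genes, 389 were DEGs (2.58%), 187 higher (1.24%) and 202 lower (1.34%) in cKO nuclei. In simulated data of 15070 genes, 100 were changed by 0.75 and another 100 by 1.5 on the log2 scale. The same rule gave 367 false calls there. It recovered 68% of the changes of 0.75 and 93% of those of 1.5. An adjusted p below 0.05 recovered 16% and 65% of them. In the measured data, an unadjusted p below 0.05 was reached by 709 genes, or 4.70%. The adjusted p fell below 0.05 for 2 genes (0.0133%), Socs2 and Mir692-1. Over all genes tested the median log2 fold change was -0.0065, and 49.0% of genes lay above 0. In 862 genes (5.72%) the groups did not overlap, 448 higher (2.97%) and 414 lower (2.75%) in cKO. The groups of 224 of the 389 DEGs did not overlap. For every DEG other than Socs2 and Mir692-1 the adjusted p lay between 0.109 and 0.984, so those calls rest on the unadjusted p. Without control 4 the lower DEGs numbered 323 and the genes with an adjusted p below 0.05 numbered 9.

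**Figure D2:**
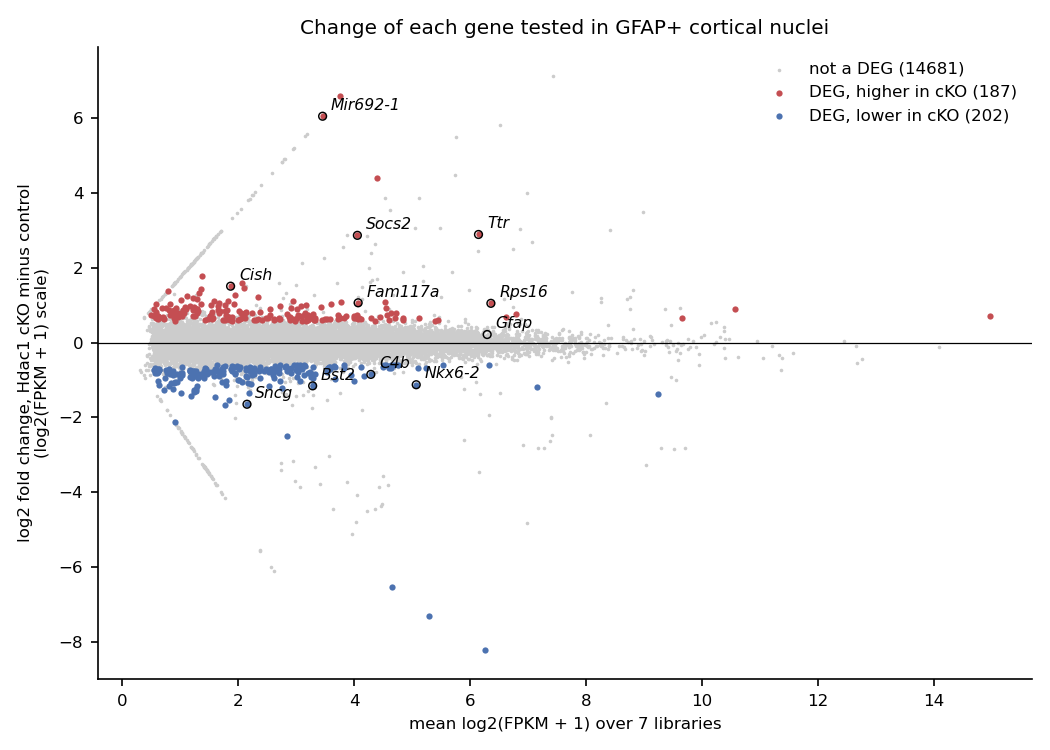
Log2 fold change (Hdac1 cKO minus control) of each of the 15070 genes tested against its mean log2(FPKM + 1) over the 7 libraries. Red points are the 187 DEGs higher and blue points the 202 DEGs lower in cKO, and Socs2 stands apart among genes of moderate abundance at 2.87.

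Socs2, a STAT5 target and brake on growth hormone signalling, was the clearest change. Socs2 (chr10:94847996-94879814, minus strand) was listed at 3.25, 5.82 and 4.27 FPKM in controls and at 36.8, 26.4, 43.7 and 49.5 FPKM in cKO libraries. The lowest cKO library was well above the highest control. Means were 4.45 ± 1.29 (SD, n = 3) and 39.1 ± 9.91 FPKM (SD, n = 4), a ratio of 8.79, and the log2 fold change was 2.87 ± 0.238 (SE), with an adjusted p of 0.00137 in limma.

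Cish, a close relative of Socs2, was also a DEG higher in cKO nuclei. Cish (chr9:107198357-107205115, plus strand) was at 0.373, 1.61 and 1.29 FPKM in controls and at 6.35, 4.21, 3.56 and 5.22 FPKM in cKO libraries, with no overlap. Its log2 fold change was 1.51 ± 0.287, with an adjusted p of 0.970 in limma. Bcl6, a transcriptional repressor whose gene STAT5 is known to repress, was lower in cKO nuclei, at 14.9, 15.3 and 14.1 FPKM in controls and 9, 7.81, 8.79 and 7.15 FPKM in cKO libraries. The 2 groups were narrow and apart, and its log2 fold change was -0.78 ± 0.16, with an adjusted p of 0.978 in limma. Bcl6 was named through a pathway list chosen after the values were seen. Ghr, the growth hormone receptor, was also added after its values were seen. Ghr was at 21.6, 22.4 and 20.2 FPKM in controls and at 14.2, 15.0, 15.6 and 16.03 FPKM in cKO libraries. These groups did not overlap either, but the log2 fold change of -0.47 ± 0.141 was below the 1.5-fold threshold.

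No other member of this pathway passed the thresholds. Its list, chosen after the values were seen, holds 18 genes, of which 17 were tested. Of these, 2 were DEGs higher (Socs2 and Cish) and 1 was a DEG lower (Bcl6), with a median log2 fold change of 0.15. Among all genes 1.24% were higher and 1.34% lower, but the list was chosen with its values known, so nothing is read from these counts. Stat5a, Stat5b, Socs1, Socs3 and Igf1 were likewise added after their values were seen. Stat5a ranged from 3.86 to 4.92 FPKM in controls and from 4.62 to 7.16 FPKM in cKO libraries, and Stat5b from 4.18 to 7.83 and from 4.40 to 5.68 FPKM. Socs1 (4.00 to 16.5 against 3.12 to 9.28 FPKM) and Socs3 (0.676 to 2.05 against 1.11 to 4.55 FPKM) overlapped between the groups. Igf1, a growth hormone target in other tissues, was at 0.0428 to 1.33 FPKM over the 7 libraries.

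**Figure D3:**
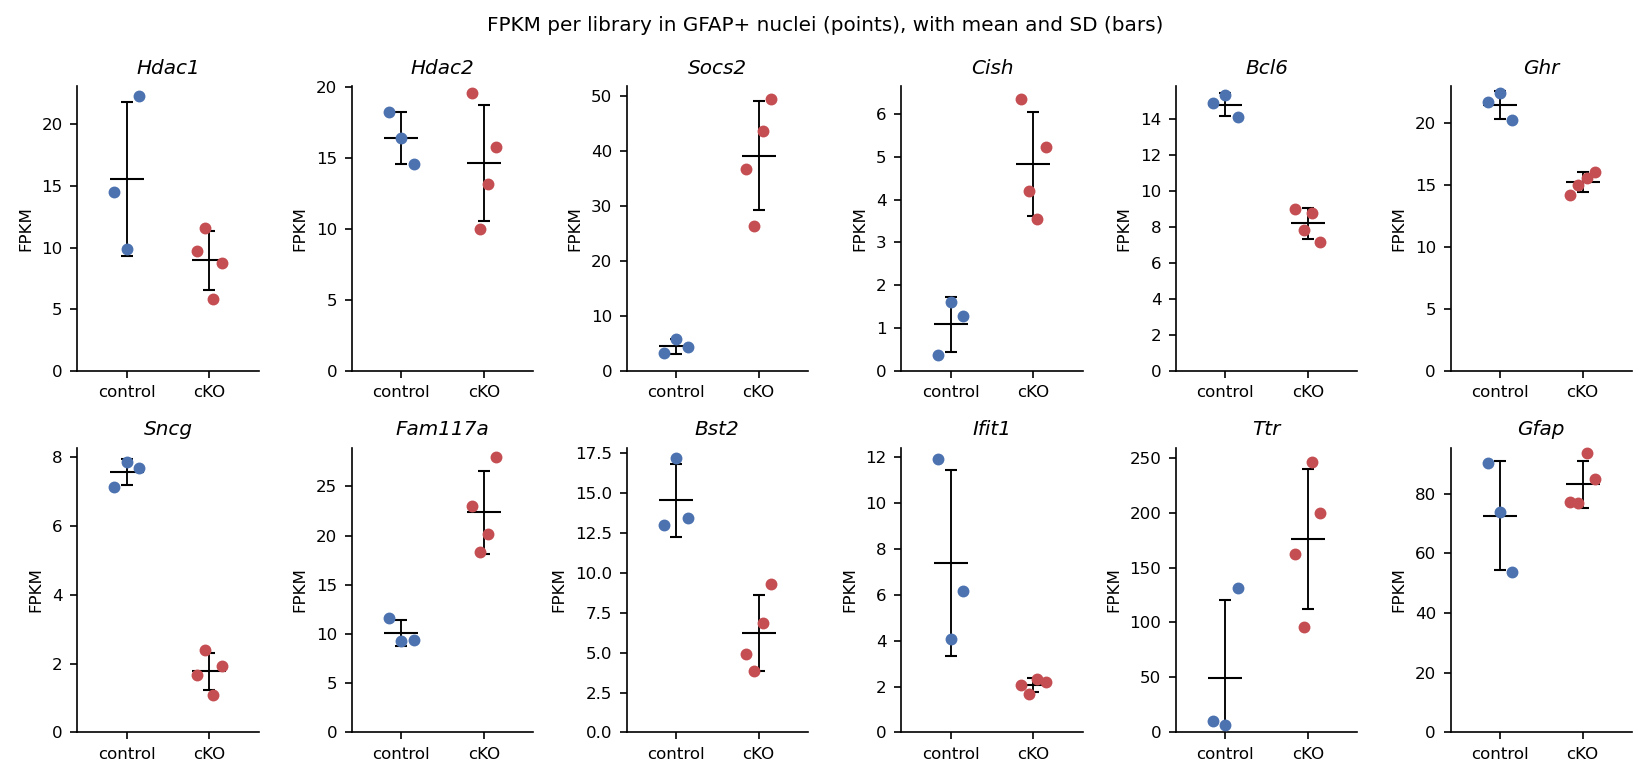
FPKM of 12 genes in each library of GFAP+ nuclei (points; 3 controls, 4 Hdac1 cKO), with the mean and SD of each group as bars, each axis starting at 0. Socs2, Cish, Fam117a, Bcl6, Ghr, Sncg, Bst2 and Ifit1 show no overlap between groups, whereas Hdac1, Hdac2, Ttr and Gfap overlap.

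Promoter windows of 300 bases, from 250 before to 50 after a RefSeq start site (GRCm38.p6), were matched for 10961 of the 15070 genes. Socs2 and Hdac1 were not matched. The windows of Cish and Bcl6 are shown because both genes sit in the STAT5 pathway and changed in opposite directions. Capitals mark the STAT palindrome TTCNNNGAA, which reads the same on both strands, and the GC box GGGCGG or its reverse complement CCGCCC. The Cish window is chr9:107296409-107296708 (plus strand), and the Bcl6 windows, from a pair of start sites, are chr16:23988803-23989102 and chr16:23981234-23981533 (minus strand).
Cish: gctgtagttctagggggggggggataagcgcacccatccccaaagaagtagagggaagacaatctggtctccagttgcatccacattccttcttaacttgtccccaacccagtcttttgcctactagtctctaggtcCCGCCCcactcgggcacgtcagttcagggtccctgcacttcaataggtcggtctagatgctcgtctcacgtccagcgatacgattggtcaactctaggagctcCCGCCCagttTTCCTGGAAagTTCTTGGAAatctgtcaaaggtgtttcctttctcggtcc
Bcl6, first window: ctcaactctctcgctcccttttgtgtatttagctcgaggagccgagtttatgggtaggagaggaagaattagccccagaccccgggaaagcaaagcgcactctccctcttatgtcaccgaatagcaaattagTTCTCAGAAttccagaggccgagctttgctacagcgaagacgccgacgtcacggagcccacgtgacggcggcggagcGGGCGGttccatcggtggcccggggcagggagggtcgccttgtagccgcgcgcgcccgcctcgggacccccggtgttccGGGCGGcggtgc
Bcl6, second window: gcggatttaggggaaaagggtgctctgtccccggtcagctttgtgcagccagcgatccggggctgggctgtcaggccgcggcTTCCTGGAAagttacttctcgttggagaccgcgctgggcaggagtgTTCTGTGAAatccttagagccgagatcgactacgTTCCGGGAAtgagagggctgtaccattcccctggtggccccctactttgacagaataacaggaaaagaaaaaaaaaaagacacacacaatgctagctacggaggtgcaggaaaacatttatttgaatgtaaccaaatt
The Cish window held 2 STAT palindromes, beginning at the first and the twelfth base of the transcript. The first Bcl6 window held 1 and the second held 3. Among all genes tested with a window, 8.24% held at least 1 such palindrome. The share was 10.4% of the DEGs higher (13 of 125, exact binomial interval 5.65 to 17.1%) and 13.8% of the DEGs lower (20 of 145, 8.63 to 20.5%). In the pathway list, 4 of 14 genes with a window held it, Cish, Bcl6, Prlr and Socs3, and the latter pair were not DEGs. A GC box was in the windows of 66.4% of genes tested, 57.6% of DEGs higher (72 of 125, exact binomial interval 48.4 to 66.4%) and 61.4% of DEGs lower (89 of 145, 52.9 to 69.3%). These shares are descriptions of short windows and say nothing of binding.

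Of 27 genes of the interferon response and antigen presentation that were tested, 4 were DEGs lower in cKO nuclei (Ifit1, Bst2, Isg15 and B2m) and none was higher, beside 1.34% lower among all genes. The count of lower DEGs ranged from 2 without control 1 to 6 without control 4. The median log2 fold change of the list was -0.23, beside -0.0065 for all genes. Ifit1, an interferon-induced protein that binds viral RNA, was at 11.9, 4.06 and 6.16 FPKM in controls and at 2.08, 1.67, 2.34 and 2.19 FPKM in cKO libraries. All 4 cKO libraries were below the lowest control, and the log2 fold change was -1.34 ± 0.303 with an adjusted p of 0.978 in limma. Bst2, which encodes tetherin, a surface protein that retains budding virus, was at 13.0, 17.2 and 13.4 FPKM in controls and at 4.89, 3.83, 6.88 and 9.29 FPKM in cKO libraries. Its groups were also apart, and its log2 fold change was -1.16 ± 0.258. The ubiquitin-like Isg15 (4.31 to 9.15 against 1.99 to 5.28 FPKM) and B2m, the light chain of MHC class I (83.9 to 123 against 45.3 to 85.2 FPKM), were DEGs with overlapping groups, at -0.80 ± 0.307 and -0.59 ± 0.224. Isg15 was no longer a DEG without control 1, control 3 or cKO 1, nor was B2m without control 1, cKO 1 or cKO 2.

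Other members were not DEGs. The transcription factor genes Stat2 and Irf9 had log2 fold changes of -0.0021 and 0.12, and Ifit3 had -0.34, all with overlapping groups. H2-K1, an MHC class I heavy chain, had 0.11, and H2-D1 had -0.57 with overlapping groups. Among interferon-inducible membrane proteins outside this list, Ifitm3 was a DEG lower and Ifitm1 a DEG higher, and Ifitm3 was named after its values were seen. Ifitm3 was at 57.3, 62.5 and 54.9 FPKM in controls and at 34.5, 25.97, 44.6 and 51.6 FPKM in cKO libraries, without overlap and with a log2 fold change of -0.60 ± 0.215. Ifitm1 was at 5.93, 12.6 and 6.53 FPKM in controls and 16.1, 17.2, 16.6 and 23.4 FPKM in cKO libraries. The log2 fold change of Ifitm1 was 1.10 ± 0.248, with an adjusted p of 0.978 in limma. Cd74, the MHC class II invariant chain made by microglia and macrophages, and the macrophage lysozyme Lyz2 were DEGs lower. Cd74 was at 11.9, 20.1 and 12.5 FPKM in controls and at 4.43, 3.11, 10.7 and 8.24 FPKM in cKO libraries. Lyz2 was at 4.28, 5.00 and 8.37 FPKM in controls and at 0.516, 0, 2.27 and 2.93 FPKM in cKO libraries. For both, cKO libraries 1 and 2 were the lowest, as they were for the summed microglia and macrophage markers. The same held for Bst2, B2m, Ifit1 and Ifitm3, but not for Isg15. None of the 20 microglia and macrophage markers tested was a DEG, beside 2.58% of all genes, so a count of 0 is near that share. Their median was -0.23. The part of microglial RNA in these differences was not tested.

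The windows of Ifit1 and Bst2 are shown because these are the DEGs of the interferon list whose groups did not overlap. Capitals mark the core of the interferon-stimulated response element, GAAA, any 2 bases and GAAA again, or its reverse complement with TTTC, and matches may overlap. They lie at chr19:34640639-34640938 (plus strand) and chr8:71537423-71537722 (minus strand) in GRCm38.p6.
Ifit1: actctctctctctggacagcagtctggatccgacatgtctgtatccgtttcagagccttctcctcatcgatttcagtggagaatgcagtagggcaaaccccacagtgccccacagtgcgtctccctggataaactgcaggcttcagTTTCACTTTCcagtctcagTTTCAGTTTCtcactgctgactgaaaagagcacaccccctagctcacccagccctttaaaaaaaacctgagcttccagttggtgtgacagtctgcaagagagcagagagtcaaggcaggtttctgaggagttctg
Bst2: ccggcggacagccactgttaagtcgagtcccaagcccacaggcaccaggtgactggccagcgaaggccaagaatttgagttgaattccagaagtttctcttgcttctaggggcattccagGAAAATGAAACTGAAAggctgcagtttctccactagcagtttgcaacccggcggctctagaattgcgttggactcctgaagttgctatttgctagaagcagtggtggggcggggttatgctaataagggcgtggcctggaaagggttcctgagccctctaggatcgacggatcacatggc
Each held 2 matches. Of the 24 list members with a window, 12 held the element, including all 4 DEGs but also Ifit3, Stat2, Rsad2 and others that did not pass. Among all genes tested it was found in 3.45%.

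Other immune and reactive genes gave isolated differences. C4b, the complement component that reactive astrocytes raise, was at 34.4, 23.8 and 22.5 FPKM in controls and at 17.6, 11.8, 14.0 and 14.1 FPKM in cKO libraries. Every cKO library was below every control, and the log2 fold change was -0.85 ± 0.195 with an adjusted p of 0.978 in limma. It was 1 DEG of 23 reactive astrocyte genes tested, beside 2.58% of all genes, and their median was -0.23, while 11 members of that list, among them Lcn2, were too low to test. Gfap, the hallmark of reactivity, was at 53.9 to 90.2 FPKM in controls and 76.9 to 93.5 FPKM in cKO libraries, with a log2 fold change of 0.22 ± 0.181. Vim had 0.09 and Serpina3n -0.23, both with overlapping groups. Of 27 cytokine signalling genes tested, Socs2 and Nfkbia were DEGs higher and none was lower, beside 1.24% higher among all genes, and their median was -0.10. Nfkbia, the inhibitor of NF-κB, was at 54.3 to 96.1 FPKM in controls and 92.1 to 151 FPKM in cKO libraries, which overlapped at cKO 2, and it was no longer a DEG without control 4 or cKO 3. Traf1, an adaptor of TNF receptors, was at 2.35, 0.688 and 1.12 FPKM in controls and at 2.70, 5.44, 3.69 and 4.44 FPKM in cKO libraries, a log2 fold change of 1.12 ± 0.298.

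The lists of the astrocyte program held 1 DEG in all, beside 2.58% of all genes. None of the 24 astrocyte markers and none of the 24 genes of glutamate, potassium and metabolic support was a DEG, with medians of 0.03 and 0.02. The largest differences among the markers, each below the fold threshold, were those of the water channel Aqp4 (0.53) and the folate enzyme Aldh1l1 (0.48). Glul, which makes glutamine from glutamate, was at 178 to 192 FPKM in controls and 200 to 247 FPKM in cKO libraries, without overlap, but its log2 fold change was 0.32. Of 31 fate regulators tested none was a DEG. Among 16 secreted synapse regulators, Tnc, which encodes the matrix protein tenascin-C, was a DEG higher, at 6.05, 2.33 and 5.08 FPKM in controls and at 8.70, 6.91, 9.44 and 11.1 FPKM in cKO libraries. These groups were apart by less than 1 FPKM.

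Lipid genes held no DEG among the 26 of transport and oxidation or the 32 of cholesterol and fatty acid synthesis that were tested, beside 2.58% of all genes. Apoe, the main lipid carrier that astrocytes secrete, was nonetheless at 7710, 9357 and 7286 FPKM in controls and at 5437, 3848, 6568 and 6742 FPKM in cKO libraries. These groups did not overlap, the log2 fold change was -0.55, just short of the 1.5-fold threshold, and the gene was singled out after its values were seen. Apoc1, an apolipoprotein gene outside these lists, was a DEG lower, with a log2 fold change of -1.03. It too was named after its values were seen.

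Genes of oxidized base repair, which the study links to HDAC1 through OGG1, held no DEG, beside 2.58% of all genes, so a count of 0 in lists of this size is near that share. Ogg1, the glycosylase that removes 8-oxoguanine, was at 3.36, 3.86 and 1.78 FPKM in controls and at 0.575, 2.93, 2.46 and 2.54 FPKM in cKO libraries, a log2 fold change of -0.40 ± 0.354 with overlapping groups. It was -0.10 without cKO 1, -0.24 without control 3 and -0.64 without control 4. None of the 21 base excision repair genes tested was a DEG, and their median was 0.04. Of the 7 genes whose hippocampal promoters the study examined for 8-oxoguanine, 6 were tested and none was a DEG, with a median of 0.08. Among 30 antioxidant and NRF2 genes none was a DEG either.

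In the p53 list, 2 of 13 genes tested were DEGs, both lower, beside 1.34% lower among all genes. Cdkn1a, which encodes the cell cycle inhibitor p21, was at 6.69, 9.54 and 6.65 FPKM in controls and at 5.68, 2.97, 4.25 and 3.73 FPKM in cKO libraries, without overlap and with a log2 fold change of -0.75 ± 0.233. Fas, a death receptor, was a DEG at -0.70 ± 0.313 in 7 of 17 settings, and the groups overlapped. Its value was -0.34 without control 4, and it was also no DEG without control 3, cKO 1, cKO 2 or cKO 4. Bax, a driver of apoptosis, was at 111 to 135 FPKM in controls and 156 to 163 FPKM in cKO libraries, and its log2 fold change of 0.34 was below the threshold. The list's median was -0.02. Among 21 cell cycle genes tested, Ccnd2 and E2f1 were DEGs higher and Ccne1 lower, beside 1.24% higher and 1.34% lower among all genes. Cyclin D2, from Ccnd2, drives entry into the cycle, and it was at 15.9, 13.2 and 22.2 FPKM in controls and at 34.2, 27.8, 31.2 and 22.4 FPKM in cKO libraries. Control 4 and cKO 4 were almost level. Ccnd2 was no longer a DEG without control 3 (0.58), nor was E2f1 without control 4 (0.37) or without cKO 1, 3 or 4. The division markers Mki67 (0.0446 to 0.535 FPKM), Top2a (0 to 0.615 FPKM) and Cdk1 (0 to 0.138 FPKM) were too low to test.

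**Figure D4:**
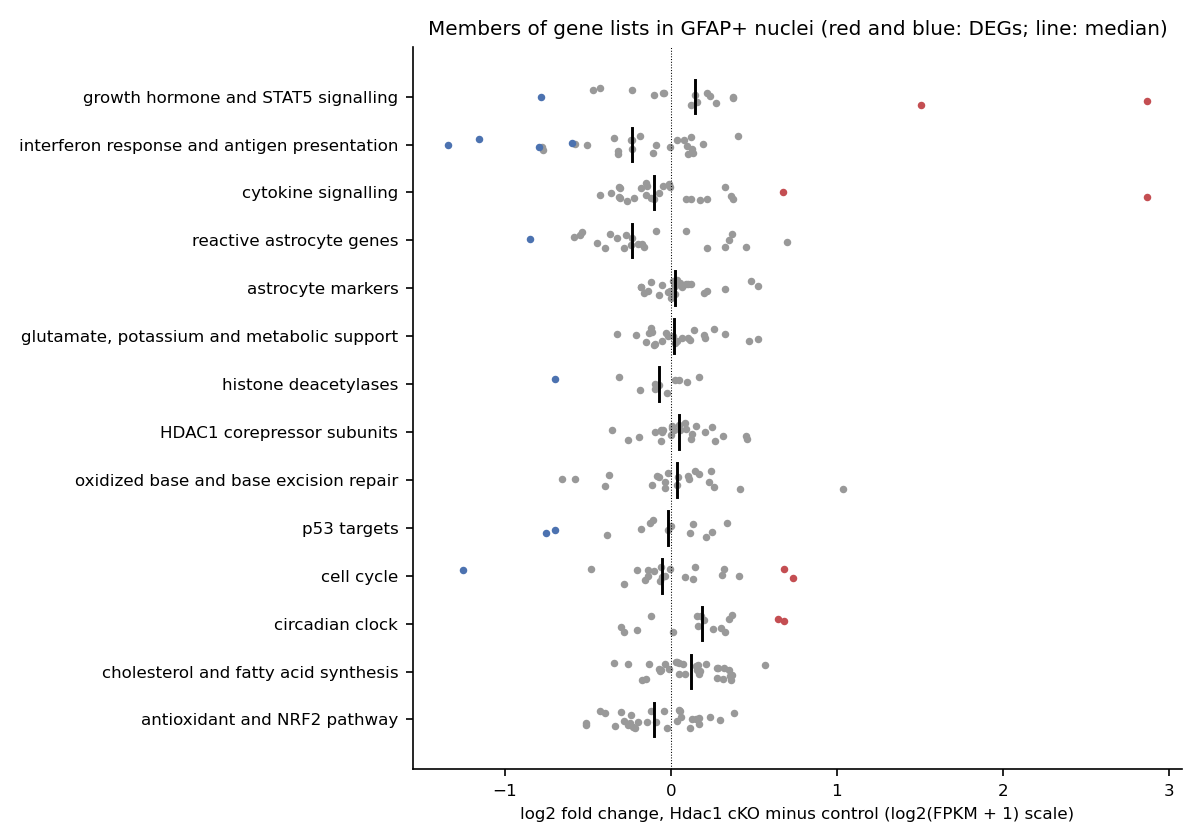
Log2 fold change of each tested member of 14 gene lists in GFAP+ nuclei, with DEGs higher in red, DEGs lower in blue, other members in grey and the median of each list as a black line. The interferon list has 4 DEGs, all lower, while the astrocyte marker list has none and a median of 0.03.

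Of 16 clock genes, Per1 and Npas2 were DEGs higher (beside 1.24% of all genes), at 10.2 to 13.3 against 13.1 to 23.1 FPKM and at 3.81 to 6.67 against 6.79 to 10.2 FPKM, and the median of the list was 0.19. Per1 was no longer a DEG without control 3, cKO 2 or cKO 3, nor was Npas2 without control 3, control 4 or cKO 3. Per1 and Nfkbia were the DEGs of the 12 glucocorticoid response genes, both higher (beside 1.24% of all genes), and the median of that list was 0.32, beside -0.0065 for all genes. Both are also counted in lists above. Presynaptic genes (19 tested) and respiratory chain genes (83 tested) held no DEG. Of 81 ribosomal protein genes, Rps16 was higher and Rpl30 and Rpl34 lower, a count near the 2.58% of all genes that were DEGs, with a list median of 0.04. Since many ribosomal protein genes have near-identical pseudogenes, reads may have been split among copies, and these 3 values are uncertain. Rpl30 was no longer a DEG without control 4, nor was Rpl34 without control 4, cKO 2 or cKO 3.

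Beyond the lists, Sncg and Fam117a had the lowest p after Mir692-1 and Socs2. Sncg (chr14:35183460-35187975, minus strand) encodes γ-synuclein, a small protein of axons, and was at 7.15, 7.87 and 7.69 FPKM in controls and at 1.67, 2.40, 1.10 and 1.93 FPKM in cKO libraries. The controls were tight and all cKO libraries far below them, and the log2 fold change was -1.65 ± 0.227 with an adjusted p of 0.109 in limma. Of the 18 neuron markers tested, 1 was a DEG lower, beside 1.34% of all genes, and their median was -0.06. It was Neurod6, a transcription factor of excitatory neurons, which met the thresholds in 11 of 17 settings and lost its call without any 1 control, cKO 1 or cKO 4. Fam117a was at 11.6, 9.25 and 9.41 FPKM in controls and at 22.96, 18.4, 20.1 and 27.98 FPKM in cKO libraries, a log2 fold change of 1.07 ± 0.181 with an adjusted p of 0.494.

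The 12 largest rises, ranked among DEGs whose groups did not overlap and whose higher group averaged at least 2 FPKM, included Reg3a, Calml4, Ccdc69, Rnf125, Nrros and Eepd1, beside Socs2, Cish, Traf1, Ifitm1, Fam117a and Rps16. The log2 fold changes of the first 6 of these ran from 0.99 for Eepd1, a protein of replication fork repair, to 1.44 for the secreted lectin Reg3a. Reg3a was at 0.385 to 0.532 FPKM in controls and 1.22 to 7.61 FPKM in cKO libraries. It averaged 0.453 FPKM in controls and passed the 0.5 FPKM filter only through the cKO libraries, so nothing is read from its rank. Calml4, a calmodulin-like protein, was at 0.213 to 0.872 FPKM in controls and at 1.92 to 3.64 FPKM in cKO libraries. Nrros, which in brain anchors latent TGF-β on microglia, was at 7.002, 9.87 and 5.05 FPKM in controls and 17.1, 12.4, 24.3 and 10.8 FPKM in cKO libraries, apart by about 1 FPKM.

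The 12 largest falls by the same rule were Lyz2, Sncg, Ifit1, Spata9, Myl2, Bst2, Tmem125, Cd74, Ica1, Nkx6-2, Snx20 and Armcx6. Nkx6-2, a homeobox regulator of oligodendrocytes and their myelin, was the most abundant, at 41.4, 75.7 and 43.7 FPKM in controls and at 20.03, 18.5, 25.1 and 30.5 FPKM in cKO libraries. Its log2 fold change was -1.12 ± 0.239, with an adjusted p of 0.978 in limma. Tmem125 fell by 1.15 on the log2 scale, from 6.61, 8.53 and 9.54 FPKM to 0.929, 1.99, 6.47 and 5.68 FPKM, lowest in cKO libraries 1 and 2 like the oligodendrocyte markers, and it was no longer a DEG without control 3, control 4 or cKO 2. The same held for Myl2 without control 4 and for Ica1 without control 1 or cKO 3. Myl2 averaged 0.251 FPKM in cKO libraries and passed the 0.5 FPKM filter only through the controls. None of the 15 oligodendrocyte markers tested was a DEG, beside 2.58% of all genes, but 14 of them had a log2 fold change below 0, with a median of -0.35. Whether fewer oligodendrocyte nuclei account for Nkx6-2 and Tmem125 was not tested. Cldn5, the tight junction protein of vessels, was the only DEG of 14 endothelial markers, beside 1.34% lower among all genes, at 24.9, 43.2 and 29.8 FPKM in controls and 22.1, 15.6, 19.6 and 20.9 FPKM in cKO libraries. It was no longer a DEG without control 3 or cKO 2, and the median of the endothelial list was -0.19.

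Ttr, the transthyretin made by choroid plexus, was a DEG higher with overlapping groups, and its value varied with the libraries included. It was at 10.7, 6.40 and 132 FPKM in controls and at 162, 95.9, 246 and 200 FPKM in cKO libraries. Control 4 lay among the cKO libraries, and the log2 fold change was 2.89 ± 1.11 with an adjusted p of 0.984 in limma. Without control 4 it was 4.17, with an adjusted p of 0.0145. Without control 1 it was 2.42 and without control 3 it was 2.09, and it was no longer a DEG when control 1, control 3 or any 1 cKO library was left out. The folate receptor Folr1, also of choroid plexus, was at 0 to 0.381 FPKM in controls and 0.798 to 1.85 FPKM in cKO libraries. Of 9 ependymal and choroid plexus markers tested, these 2 were DEGs higher, beside 1.24% of all genes. Folr1 averaged 0.195 FPKM in controls and passed the 0.5 FPKM filter only through the cKO libraries, so nothing is read from this count. The other 7 were not DEGs, and Foxj1 was too low to test. Of the 9 tested, 8 had a log2 fold change above 0, with a median of 0.39. The list summed to between 23.7 and 152 FPKM in controls, with control 4 the highest, and to between 130 and 263 FPKM in cKO libraries. Most of that sum was Ttr itself in control 4 and in the cKO libraries. The part of choroid plexus RNA in these values was not tested.

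Mir692-1, the second gene with an adjusted p below 0.05 (0.000828 in limma), is named because that count is small, and its name was chosen after its values were seen. It was listed at 0 in all 3 controls and at 41.3, 143, 72.6 and 42.6 FPKM in cKO libraries. Mir692-1 thus passed the 0.5 FPKM filter only through the cKO libraries. The entry is a short microRNA hairpin (chr17:7099578-7099686 in mm9), for which 1 fragment is worth many FPKM. In the hippocampal libraries it ranged from 0 to 97.8 FPKM in controls and from 0 to 41.5 FPKM in cKO mice. Exact zeros in these tables may be failed estimates, since Malat1 and Hmgcs1, a gene of sterol synthesis, were also listed at 0 in all 7 libraries, so whether Mir692-1 was absent from controls is uncertain. No fold change is given for it.

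The same genotypes were profiled in whole hippocampus of 4 control and 5 Hdac1 cKO mice aged 13 to 14 months by 3′ digital gene expression, which allowed the effect in GFAP+ nuclei to be compared with that in another region and preparation. Region, cell type, library method and, by up to 1 month, age differ together and cannot be told apart. The difference between the effects was tested as an interaction in the 11987 genes that averaged 1 FPKM or more in both sets. It had an adjusted p below 0.05 for 3 genes (0.025%), Socs2, Tekt1 and Smim5, all with a higher value in GFAP+ nuclei, and an unadjusted p below 0.05 for 923. Without hippocampus control 1 it was 69 genes with a higher and 2 with a lower value. Tekt1 and Smim5 were named after their values were seen.

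In hippocampus Socs2 did not pass the thresholds. There it was at 13.0 to 14.9 FPKM in controls and 12.8 to 20.3 FPKM in cKO mice, a log2 fold change of 0.27, so the effect in GFAP+ nuclei was larger by 2.60 ± 0.273 with an adjusted p of 0.000222. Cish in hippocampus was at 1.10 to 2.37 against 0.799 to 2.19 FPKM, and its difference of 1.74 ± 0.345 had an adjusted p of 0.147. Tekt1, a tektin of motile cilia, was higher in cKO GFAP+ nuclei, at 2.89 to 4.64 against 5.56 to 7.82 FPKM, and lower in cKO hippocampus, at 6.40 to 10.1 against 1.19 to 2.69 FPKM. Its difference was 2.38 ± 0.278, with an adjusted p of 0.000527. Enkur and Nme5, other genes of motile cilia, were named after their values were seen. They were also DEGs higher in nuclei (0.70 and 0.74) and lower in hippocampus (-0.89 and -0.59), but their differences had adjusted p in limma of 0.322 and 0.358. Dynlrb2, also of cilia and named late, was no DEG in nuclei (0.47) and was lower in hippocampus (-1.85). Its difference had an adjusted p in limma of 0.0738. No list of motile cilia genes was tested, so these are single genes. Among the ependymal and choroid plexus markers, 8 of 9 were above 0 in nuclei, as given above, and their part in these values was not tested. Smim5, a small membrane protein, likewise differed in sign, at 0.661 to 2.28 against 1.38 to 4.19 FPKM in GFAP+ nuclei and 2.91 to 12.2 against 0 to 0.830 FPKM in hippocampus, with an adjusted p of 0.00860 for the difference. That of Smim5 no longer passed with a pseudocount of 0.1 or without GFAP+ control 1. With the replicate number as a block, neither Smim5 nor Tekt1 passed. Within nuclei, Tekt1 was no longer a DEG without control 3 or cKO 3, nor was Smim5 without control 1, control 3, cKO 1, cKO 3 or cKO 4.

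Several genes were DEGs lower in both sets. Sncg was at 20.6 to 48.3 FPKM in control and 10.4 to 14.9 FPKM in cKO hippocampus, a log2 fold change of -1.27 beside -1.65 in GFAP+ nuclei. Bst2 had -1.52 beside -1.16, C4b -0.59 beside -0.85, Lyz2 -0.92 beside -1.67, and Ifitm3 -1.18 beside -0.60. Hdac1 itself was at 5.91 to 10.7 FPKM in control and 2.36 to 3.03 FPKM in cKO hippocampus, without overlap, a log2 fold change of -1.23 beside -0.70. None of these 6 differences passed the test of the interaction, with adjusted p in limma from 0.711 to 0.902. Ttr, Calml4 and Folr1 pointed the other way, higher in cKO nuclei and lower in cKO hippocampus, where Ttr ranged from 576 to 20146 FPKM in controls and from 56.5 to 1608 FPKM in cKO mice. The hippocampal groups of all 3 overlapped, the differences of Ttr and Calml4 had adjusted p in limma of 0.344 and 0.322, and that of Folr1 was not tested. Of the 146 DEGs lower in GFAP+ nuclei that were tested in both sets, 11 were DEGs lower in hippocampus (7.53%) and 1 was higher, and of the 115 DEGs higher, 1 was higher and 8 were lower (6.96%). In hippocampus as a whole, 71 of 14265 genes tested were DEGs higher (0.498%) and 409 lower (2.87%). Among the 11987 genes tested in both sets, 2.19% were DEGs lower and 0.409% DEGs higher in hippocampus.

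**Figure D5:**
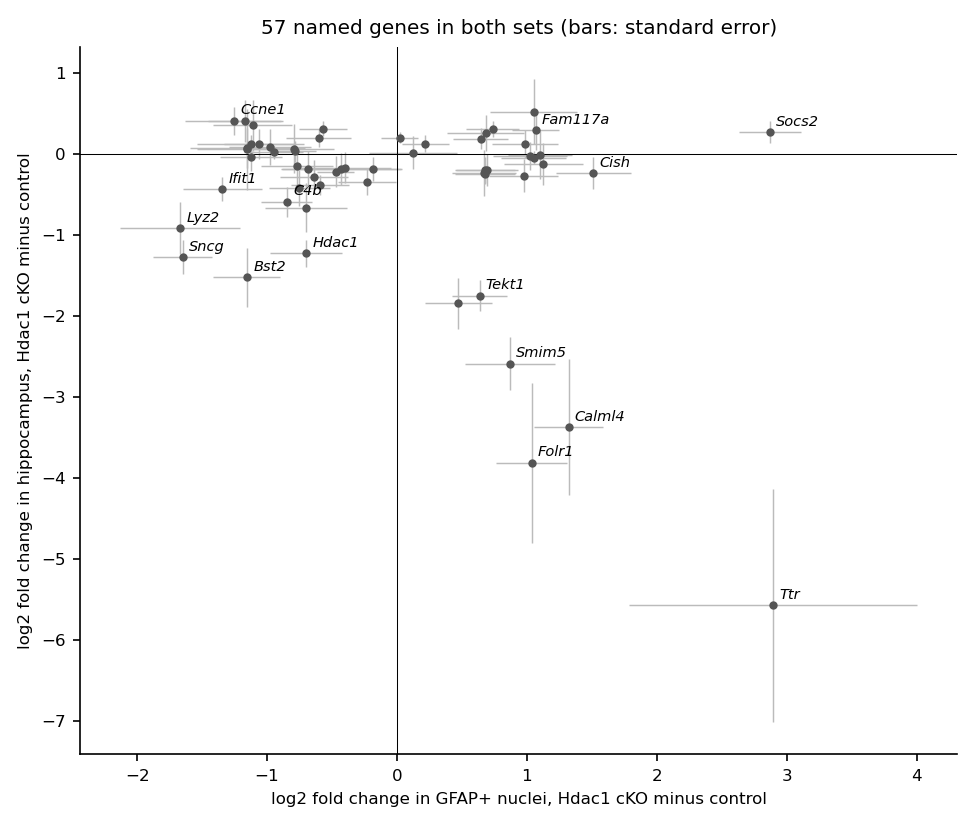
Log2 fold change (Hdac1 cKO minus control) of 57 named genes in GFAP+ nuclei (x axis) and in whole hippocampus (y axis), each with its standard error from limma. Socs2 lies at 2.87 and 0.27, Sncg, Bst2, Lyz2 and Hdac1 are below 0 in both, and Ttr, Folr1, Calml4, Smim5 and Tekt1 are above 0 in nuclei and below 0 in hippocampus.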

How the data were processed

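RNA of GFAP-sorted cortical nuclei was measured in 3 control and 4 Hdac1 cKO mice and, for comparison, RNA of whole hippocampus in 4 control and 5 Hdac1 cKO mice. Per the labels and the study's methods, the authors aligned reads with TopHat and Bowtie and deposited 1 table per sample of FPKM values computed by Cufflinks 2.0.0 on mm9 gene models. FPKM carries no counts, so depth was known only in relative terms, from the steps between low values, and no count model could be used. Values were analysed as log2(FPKM + 1) with limma 3.58.1 (trend and robust moderation) in R 4.3.3, over genes with a mean FPKM of at least 0.5, and the script was tested on simulated data. DEGs changed 1.5-fold or more with an unadjusted p below 0.05. The fit of the difference between nuclei and hippocampus used both sets with an interaction term. It took 1 variance per gene over both sets, so its p-values assume an equal spread in them. Gene coordinates are from GENCODE models of mm9, and promoter windows from RefSeq on GRCm38.p6, searched on both strands with exact 95% binomial intervals.

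Genes named were Hdac1, Hdac2, Ogg1, Gfap and Rbfox3, the 12 largest rises and falls, and up to 4 DEGs of each gene list. Some others were added after their values were seen. Predicted genes and small RNAs were left out of the ranking. The samples, gene lists and tests were chosen with earlier results of these data known. Alternatives were another pseudocount, other filters, 2 scalings, other variance models, array weights, the replicate number as a block, and each library left out in turn. The GFAP+_WT2 library was not analysed here.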

Additional observations from a re-analysis of the deposited data

Results flagged for a closer look

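In 4 of 64 named genes, 1 of the 4 cKO libraries lay far from the other 3 by Dixon's test, which chance alone gives in about 5% of groups. They were Ifitm1 in cKO 4 (23.4 FPKM, beside 16.1 to 17.2 FPKM in the others), Rps16 in cKO 3 (163 FPKM, beside 93.7 to 100.2 FPKM), Stat5a in cKO 3 (7.16 FPKM, beside 4.62 to 4.84 FPKM) and Socs3 in cKO 4 (4.55 FPKM, beside 1.11 to 1.46 FPKM). Both DEGs among them, Ifitm1 and Rps16, also had no overlap between the groups in the other 3 cKO libraries.

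The effect of Hdac1 loss differed between GFAP+ nuclei and hippocampus, by the interaction term in limma, for Socs2 (2.60 on the log2 scale), Tekt1 (2.38) and Smim5 (3.46). All 4 cKO libraries of nuclei lay above the controls for Socs2 and Tekt1, and 3 of 4 did for Smim5. Region, cell population, library method and age range differ together between the sets and cannot be told apart.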

How the results depend on the processing

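Of the 51 named DEGs, 29 met the DEG thresholds under all 17 settings run, and none changed direction. Direction changed for 2 genes that were not DEGs: Rbfox3 had -0.0091 without control 1 and ranged up to 0.038 with another library left out, and Igf1 had -0.022 with a pseudocount of 0.1, -0.034 without cKO 1 and -0.051 without cKO 4, and ranged up to 0.34. With unmoderated variances the DEGs numbered 121 higher and 105 lower and the genes with an adjusted p below 0.05 numbered 0, and 225 of the 226 DEGs of that setting were among the 389. When each library was left out in turn, higher DEGs ranged from 160 to 253, lower DEGs from 157 to 323 and genes with an adjusted p below 0.05 from 2 to 9, and 56.8% to 73.0% of the 389 DEGs were called again. Hdac1 stayed lower but missed the p threshold with quantile normalization (-0.69), median scaling (-0.68), without trend and robust moderation (-0.70) and with unmoderated variances (-0.70), and with 1 library left out it ranged from -0.97 to -0.42 and missed it without control 1, control 4, cKO 3 or cKO 4. The adjusted p of Socs2 stayed below 0.05 in every setting but unmoderated variances, where it was 0.568. The causes were not tested. The count of genes whose effect was higher in nuclei than in hippocampus ranged from 2 to 69 and the count lower from 0 to 2 with 1 library left out. The adjusted p of the difference for Smim5 was 0.0509 with a pseudocount of 0.1 and 0.0524 without control 1. The longer GC box GGGGCGGGG was in 20% of windows of higher and 21.4% of lower DEGs, and in 23.7% of all genes tested.

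Samples with the same replicate number in both groups showed no sign of pairing. Their deviations from their group means had correlations of 0.0020, 0.0479 and -0.0425. Pairs of unlike number ranged from -0.0653 to 0.0557. With so few libraries, such values cannot exclude pairing. With the replicate number as a block there were 256 DEGs higher, 170 lower and 5 genes with an adjusted p below 0.05, and 1 gene, Socs2, differed from hippocampus, since the adjusted p of the difference was 0.0768 for Tekt1 and 0.137 for Smim5. Since the values carry no counts, precision at low FPKM could not be set from depth.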

Other observations

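The remaining lists held 0 or 1 DEG each, beside 2.58% of all genes, so these are single genes and not results about the lists. Of 26 heat shock genes tested, Hspb8, a small chaperone, was higher, at 5.05 to 8.10 FPKM in controls and 8.12 to 16.5 FPKM in cKO libraries. Of 26 immediate early genes tested, Ier3, an early response gene of stress and NF-κB signalling, was higher, at 3.79 to 6.87 against 6.44 to 12.8 FPKM. Among 268 solute carriers tested, the only DEG was Slc16a10, a transporter of aromatic amino acids, at 1.59 to 1.79 against 2.66 to 5.02 FPKM and a log2 fold change of 0.69. Among 19 clustered histone genes tested, the linker histone gene Hist1h1e was lower, at 2.72 to 6.30 against 1.53 to 2.75 FPKM. The 9 oligodendrocyte precursor markers, 12 mural cell and fibroblast markers and 4 blood and T cell markers tested held no DEG. Hspb8 was no longer a DEG without control 4 or cKO 2, nor was Slc16a10 without cKO 2 or Hist1h1e without control 4.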
